A study of Mus musculus with 12 samples.

Results

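The germ cell niche of the fetal testis is described here through 10 genes, chosen by symbol: the ligands Kitl, Gdnf, Cxcl12, Lif and Nrg1 and the receptors Kit, Gfra1, Ret, Cxcr4 and Ackr3. All 10 of these were among the 24470 genes counted and among the 15572 genes that passed a filter on low counts. RNA-seq was done on pools labelled as testis from mouse embryos at E14.5, in 6 control pools and 6 cKO pools of 3 testes each. Control testes were Nr2f2 f/f and cKO testes were Wt1 CreER x Nr2f2 f/f, so both groups carried the floxed allele and only cKO embryos carried the Cre, and tamoxifen was given at E11.5 and E12.5. The Cre is driven from Wt1, a gene of somatic gonadal progenitors and Sertoli cells, it acts only after tamoxifen, and pools combine testes that may have recombined to different degrees. The authors report NR2F2 protein at E14.5 in interstitial and tunica cells and not in Sertoli cells.

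Germ cells of the fetal testis lie inside the cords among Sertoli cells, and they depend on secreted and membrane-bound factors from somatic cells. KIT ligand acts on the receptor tyrosine kinase KIT, which germ cells, mast cells and melanocytes use for survival and migration. GDNF is bound by the co-receptor GFRA1, which then engages the tyrosine kinase RET, and in the postnatal testis this signal maintains spermatogonial stem cells. CXCL12 is a chemokine that guides primordial germ cells through the receptor CXCR4, and ACKR3 is an atypical receptor that takes up CXCL12 and lowers its free level. LIF, a cytokine of the interleukin 6 family, and NRG1, a growth factor for ERBB receptors, act on germ cells in culture and on several somatic cells.

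Total counts ran from 7044531 to 39965574 in control libraries and from 7322959 to 59404778 in cKO libraries. Levels below are CPM, counts scaled to library size with TMM factors, and fold changes are log2 values of cKO over control from edgeR's quasi-likelihood test, called at a Benjamini-Hochberg adjusted p under 0.05. The targeted gene Nr2f2 had 163 to 186 CPM in control pools and 50.2 to 119 CPM in cKO pools, with a log2 fold change of -1.21 (SE 0.16, adjusted p = 0.000548 from edgeR). Xist, the RNA of the inactive X chromosome, went against the testis label in 4 libraries: it was at 304 to 891 CPM in control replicate 1 and cKO replicates 3, 5 and 6, and at 5.15 to 7.68 CPM in the other 8. Xist is a transcript of XX cells, and whether these 4 pools held XX gonads was not tested. Because these 4 libraries are spread unevenly over the groups, the 10 genes are also compared over the 5 control and 3 cKO pools without them. Sertoli markers summed to 734 to 1234 CPM in control and 724 to 1240 CPM in cKO pools, germ cell markers to 1370 to 2408 CPM and 1864 to 2160 CPM, so both cell types were present in every library. Fewer cells of a type and less RNA per cell cannot be told apart in bulk pools.

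The CXCL12 axis was lower on the side of the ligand and its scavenging receptor, the GDNF receptors Gfra1 and Ret were higher, and the KIT pair, Gdnf and Cxcr4 did not pass the test. Cxcl12 and Ackr3 were called lower, 2 of the 10 genes, where 4.85% of all genes tested were called lower. Gfra1, Ret and Nrg1 were called higher, 3 of the 10, where 3.28% of all genes were. The cKO and control values did not overlap for Ackr3 on the lower side, against 3.13% of all genes, and for Ret on the higher side, against 2.39%. In the 8 libraries with low Xist the same 2 genes were called lower and the same 3 higher, against 3.39% and 3.68% of 15586 genes, and all 5 had values that did not overlap. With only 5 against 3 pools, 14.1% of all genes did not overlap on the lower side and 14.1% on the higher side.

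**Figure D1:**
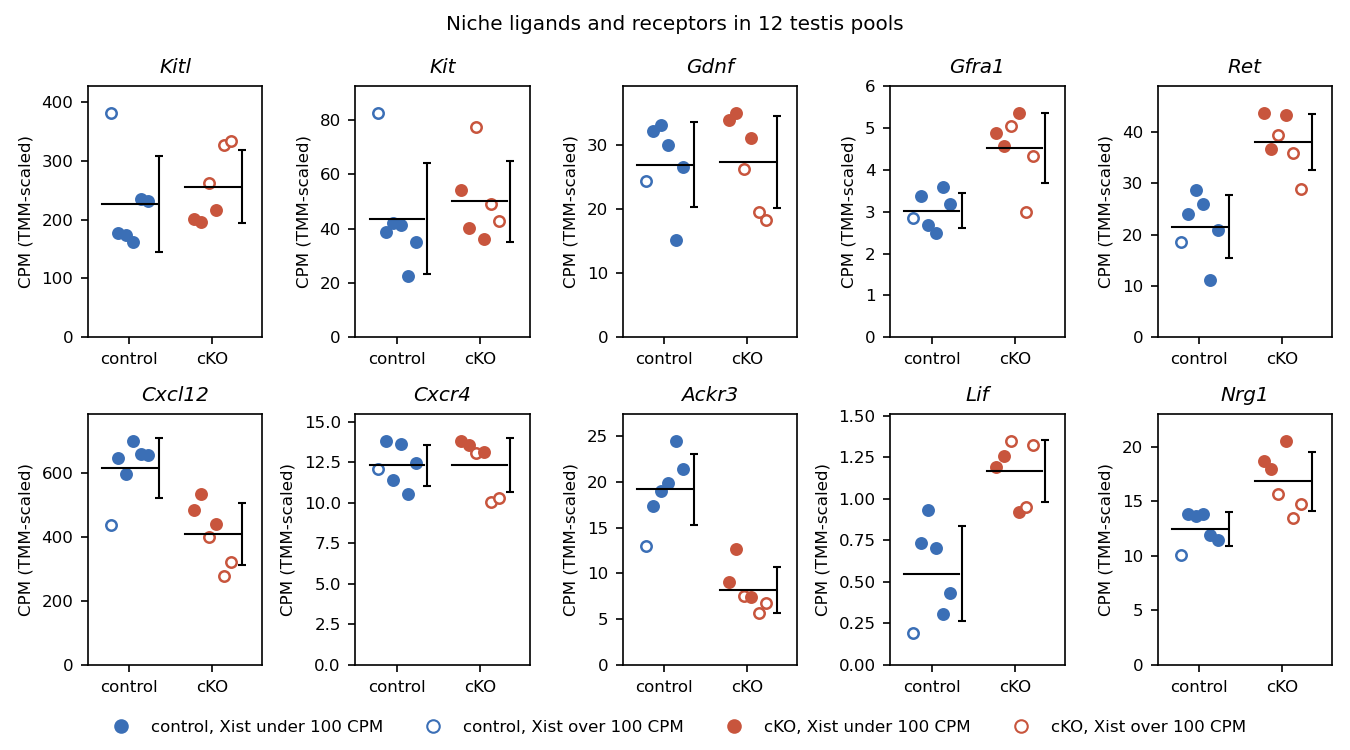
CPM of each of the 10 genes in every pool, with control in blue and cKO in red, open circles for the 4 libraries with Xist over 100 CPM, a line at the mean of 6 pools and a bar of 1 SD on each side. The 6 cKO values of Ackr3 lie under every control value and the 6 cKO values of Ret lie over every control value, while the open circles hold the 4 highest values of Kitl.

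Ackr3 (Entrez Gene 12778, chr1:90203980-90215724 of mm10, plus strand) fell the most of the 10. Its level ran from 12.9 through a median of 19.5 to 24.5 CPM in control pools and from 5.699 through 7.45 to 12.7 CPM in cKO pools. No cKO pool reached the control range, and the control pool nearest to the cKO range was replicate 1. The means were 19.2 ± 3.90 CPM and 8.18 ± 2.46 CPM (SD, n = 6 pools each), which gave a log2 fold change of -1.22 (SE 0.18, adjusted p = 0.00109 from edgeR). It was called in all 12 fits that each left out 1 library, with values from -1.37 to -1.13, and in the 8 libraries with low Xist at -1.09 (adjusted p = 0.00442 from edgeR).

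Cxcl12 (Entrez Gene 20315, chr6:117168535-117181368, plus strand), the ligand, ran from 438 through a median of 652 to 700.0 CPM in control pools and from 277 through 419 to 533 CPM in cKO pools. Control replicate 1 was the low control pool and overlapped the cKO range, so that only 3 of 6 cKO pools, replicates 3, 5 and 6, lay below all controls. The 4 libraries with high Xist held the 4 lowest values, 277 to 437.5 CPM, while the other 8 lay at 438.5 to 700.0 CPM. The means were 616 ± 93.7 CPM and 409 ± 97.2 CPM (SD, n = 6 pools each), and the log2 fold change was -0.59 (SE 0.15, adjusted p = 0.0286 from edgeR). The log2 fold change was -0.68 to -0.50 on leaving out 1 library, and the call was kept in 4 of the 12 fits that each left out 1 library (control replicate 1 or 3, cKO replicate 1 or 2), and the adjusted p from edgeR rose to at most 0.0667, without control replicate 4. In the 8 libraries with low Xist the groups no longer overlapped, at 595 to 700.0 CPM against 439 to 533 CPM, and the log2 fold change was -0.42 (adjusted p = 0.0177 from edgeR).

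Cxcr4 (Entrez Gene 12767, chr1:128588199-128592299, minus strand), the signalling receptor, had 10.6 through 12.3 to 13.8 CPM in control pools and 10.04 through 13.1 to 13.8 CPM in cKO pools. The ranges of the groups were almost the same. Its log2 fold change was 0.0055 with a 95% interval from -0.22 to 0.23 (adjusted p = 0.982 from edgeR), and in the 8 libraries with low Xist it was 0.13, with an interval from -0.11 to 0.37.

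The 250 bases before the RefSeq start sites of Cxcl12 and Ackr3 are shown because these 2 genes of the same axis were both lower. Sequences are from RefSeq on GRCm38.p6, read 5′ to 3′ on the strand of the gene, with capitals marking a match to TATAAA, the letters of a TATA box.
Cxcl12 chr6:117168285-117168534, plus strand: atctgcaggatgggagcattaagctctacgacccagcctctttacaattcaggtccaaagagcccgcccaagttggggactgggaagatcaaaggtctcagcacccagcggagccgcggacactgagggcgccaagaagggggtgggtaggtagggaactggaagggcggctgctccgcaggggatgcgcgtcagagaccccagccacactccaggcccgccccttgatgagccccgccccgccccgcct
Ackr3 chr1:90203730-90203979, plus strand: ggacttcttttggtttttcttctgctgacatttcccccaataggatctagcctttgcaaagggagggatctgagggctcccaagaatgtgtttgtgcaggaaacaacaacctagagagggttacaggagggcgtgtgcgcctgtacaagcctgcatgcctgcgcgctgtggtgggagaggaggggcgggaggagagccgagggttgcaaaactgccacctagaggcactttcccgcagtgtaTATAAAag
TATAAA on either strand was in 12.4% of the 32851 promoter windows of this length, and the Ackr3 match starts 8 bases before the start site. The same letters start 25 bases before the start site of Kitl and 31 before the first of Gdnf. For Cxcr4 they start 30 bases before it, and 32 on the opposite strand. The hexamer AGGTCA, the half-site letters bound by NR2F2 and other nuclear receptors, was searched on both strands and was in neither window, while 14.0% of all windows hold it. A direct repeat of AGGTCA with 1 base of any kind between its copies was in 0.0335% of all windows and in none of the 10 windows found for 8 of the genes. Among those windows AGGTCA occurred only in the first of Gdnf, 87 bases before the start site. A match describes letters only, and the absence of these letters in 250 bases says nothing of binding.

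Of the 10 tested partner genes of the CXCL12 axis, Dpp4 was lower and Cxcl14 higher, and the list's median was 0.069 on the log2 scale, beside 0.0030 for all genes. Dpp4, a protease that cuts and inactivates CXCL12, had 7.39 to 19.7 CPM in control pools and 3.86 to 7.44 CPM in cKO pools. Its log2 fold change was -1.03 (SE 0.24, adjusted p = 0.0174 from edgeR). Cxcl14, a chemokine that can bind CXCR4, was at 0.285 to 0.612 CPM in control and 0.661 to 1.24 CPM in cKO pools, with a log2 fold change of 0.99 (SE 0.24, adjusted p = 0.0203 from edgeR). The inhibitory G proteins and arrestins that act after these receptors (Gnai1, Gnai2, Gnai3, Arrb1 and Arrb2) did not pass the test. Without the 4 libraries with high Xist no gene of this list was called lower in edgeR and 2 were called higher. Without control replicate 1 alone 2 were called higher, and without cKO replicate 4 alone none was.

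Contractile and fetal Leydig cell markers were also mostly lower, while none of 9 Sertoli markers was called in edgeR and 0 had an unadjusted p under 0.05. Of 7 contractile markers, 6 were lower and their sum was 345 to 462 CPM in control and 197 to 303 CPM in cKO pools, of 6 fetal Leydig cell markers 5 were lower with sums of 1609 to 2982 CPM and 863 to 1792 CPM, and of 6 interstitial markers 1 was lower with sums of 927 to 1178 CPM and 630 to 1047 CPM. Endothelial markers, of which 1 of 8 was lower, summed to 382 to 550 CPM and 382 to 473 CPM. The low end of the interstitial range came from cKO replicates 3, 5 and 6. In the 8 libraries with low Xist the sums of control and cKO pools were 384.5 to 462 CPM and 224 to 303 CPM for contractile, 2197 to 2982 CPM and 1346 to 1792 CPM for Leydig, 1056 to 1178 CPM and 941 to 1047 CPM for interstitial, and 382 to 437 CPM and 397.5 to 473 CPM for endothelial markers. No marker of these lists was at 0 in all libraries, and their part in the lower Cxcl12 and Ackr3 was not tested.

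Ret (Entrez Gene 19713, chr6:118151748-118197744, minus strand), the signalling receptor for GDNF, was higher in cKO testes. It ran from 11.2 through a median of 22.5 to 28.6 CPM in control pools and from 29.0 through 38.1 to 43.7 CPM in cKO pools. All 6 cKO pools lay over every control pool, although the highest control and the lowest cKO pool were close. The means were 21.6 ± 6.22 CPM and 38.0 ± 5.48 CPM (SD, n = 6 pools each), which gave a log2 fold change of 0.81 (SE 0.18, adjusted p = 0.0125 from edgeR). The call was kept in all 12 fits that each left out 1 library, from 0.68 to 0.91, and without the 4 libraries with high Xist the value was 0.88 (adjusted p = 0.0349 from edgeR).

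Gfra1 (Entrez Gene 14585, chr19:58235581-58455398, minus strand), the GDNF-binding co-receptor, was also higher but rested on few reads, with 22 to 259 counts in a library. It ran from 2.495 through 3.01 to 3.60 CPM in control pools and from 2.99 through 4.72 to 5.37 CPM in cKO pools. Of the cKO pools 5 lay over every control pool, and replicate 5 lay within the control range. The means were 3.03 ± 0.424 CPM and 4.53 ± 0.838 CPM (SD, n = 6 pools each), which gave a log2 fold change of 0.61 (SE 0.15, adjusted p = 0.0221 from edgeR). The call was kept in 7 of the 12 fits that each left out 1 library and was lost without control replicate 3 or 4 or cKO replicate 1, 3 or 4, with an adjusted p of at most 0.0593 from edgeR. Without the 4 libraries with high Xist the log2 fold change was 0.72 (adjusted p = 0.0186 from edgeR).

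Gdnf (Entrez Gene 14573, chr15:7810048-7837580, plus strand), the Sertoli cell ligand of these receptors, had 15.1 through 28.3 to 33.1 CPM in control pools and 18.3 through 28.6 to 35.0 CPM in cKO pools. The lowest values were those of control replicate 5 and cKO replicates 5 and 6, the 3 libraries with the lowest sums of 9 Sertoli markers (734, 783 and 724 CPM, against 928 to 1240 CPM in the others). The log2 fold change was 0.020 with a 95% interval from -0.40 to 0.44 (adjusted p = 0.963 from edgeR). In the 8 libraries with low Xist it was 0.27, with an interval from -0.16 to 0.70 (adjusted p = 0.365 from edgeR).

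**Figure D2:**
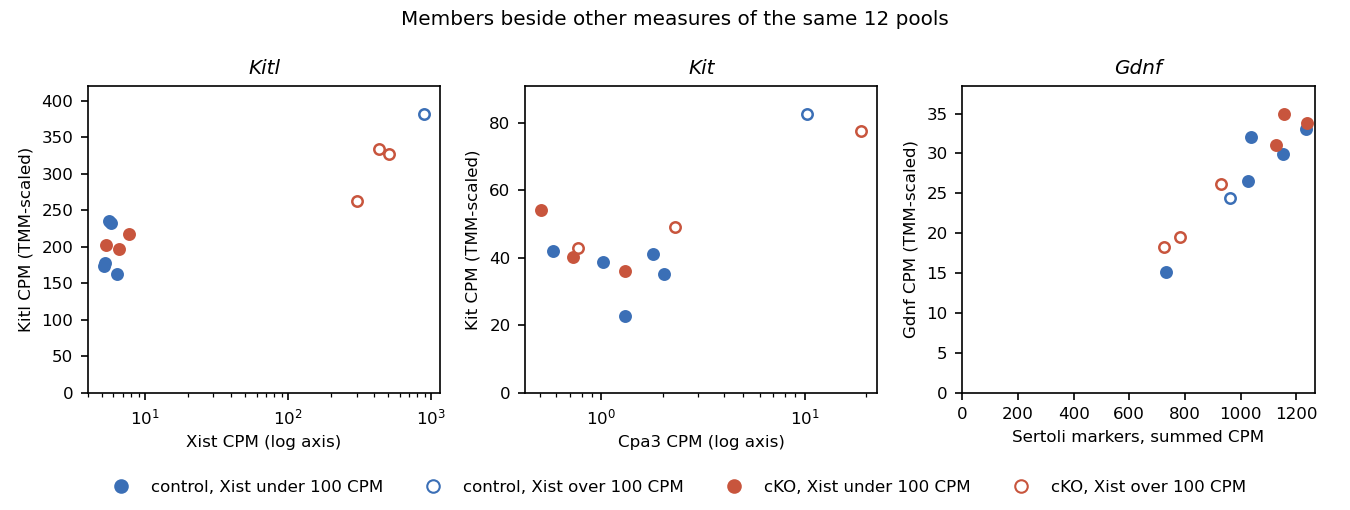
Kitl against Xist and Kit against Cpa3, both on a log x axis, and Gdnf against the summed Sertoli markers, all in CPM, with 1 point per pool and open circles for Xist over 100 CPM. The 4 pools at high Xist hold the 4 highest Kitl values, the 2 pools at 10.3 and 19.0 CPM of Cpa3 hold the 2 highest Kit values, and the 3 pools with the lowest Sertoli sums hold the 3 lowest Gdnf values.

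Genes known to be raised by GDNF in cultured spermatogonial stem cells, many of which other testis cells also express, were mostly higher. Of 8 listed 5 were called higher, none lower, and all 8 had a positive value, and their median was 0.50 on the log2 scale beside 0.0030 for all genes. The ETS factor Etv5 had 54.2 to 101 CPM in control and 102 to 136 CPM in cKO pools, a log2 fold change of 0.64 (SE 0.13, adjusted p = 0.00755 from edgeR). Its relative Etv4 rose by 0.85 on the log2 scale (SE 0.14, adjusted p = 0.00179 from edgeR), from 7.63 to 13.7 CPM in control to 16.6 to 22.6 CPM in cKO pools. The cyclin Ccnd2 rose by 0.35 (SE 0.063, adjusted p = 0.00328 from edgeR), with 248 to 297 CPM and 320 to 377 CPM. For these 3 genes no cKO pool overlapped the control pools.

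The homeobox factor Lhx1 rose by 0.85 on the log2 scale (SE 0.24, adjusted p = 0.0418 from edgeR) and the POU factor Pou3f1 by 0.72 (SE 0.19, adjusted p = 0.0333 from edgeR), with 4 and 3 of 6 cKO pools over every control pool. Bcl6b, Id4 and Mycn did not pass the test, at log2 fold changes of 0.061, 0.13 and 0.13. The count of called genes was 3 to 5 in the fits that each left out 1 library (3 without control replicate 4 or 5 or cKO replicate 1, 4 or 5) and 3 without the 4 libraries with high Xist.

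Of 10 tested genes of the GDNF family and its adaptors, the adaptor Dok5, which binds RET, was higher with a log2 fold change of 0.68 (SE 0.15, adjusted p = 0.0135 from edgeR) and 1.98 to 3.04 CPM in control against 2.58 to 4.45 CPM in cKO pools. Ncam1, an alternative GDNF receptor, had the next smallest p, with a log2 fold change of -0.20 (SE 0.090, adjusted p = 0.183 from edgeR), and Sdc3, a syndecan that binds GDNF, had -0.39 (SE 0.18, adjusted p = 0.185 from edgeR), and neither was called. Of the other ligands and co-receptors, Nrtn, Artn, Gfra2, Gfra3 and Gfra4 were not called, and Pspn, Gfral and Dok6 were too low to be tested. The list median was 0.18. Without the 4 libraries with high Xist 1 gene of this list was again called higher, and without control replicate 5 alone 1 was called lower.

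Beside the higher Ret and Gfra1, 1 of 12 germ cell markers was higher, Sox2, at a log2 fold change of 0.70 (SE 0.13, adjusted p = 0.0039 from edgeR), and the median of the list was -0.024. Of 6 tested neural and Schwann cell markers, which mark other cells that use RET, none was called by edgeR and 0 had an unadjusted p under 0.05, and the 7 listed summed to 21.2 to 26.6 CPM in control and 22.6 to 27.7 CPM in cKO pools. Of 8 immune markers 3 were higher, with sums of 48.3 to 74.4 CPM and 70.7 to 86.4 CPM, and of 72.2 to 86.4 CPM in the cKO pools with low Xist. Of 5 tested mesonephric epithelium markers 1 was higher, Pax8, at a log2 fold change of 0.47 (SE 0.14, adjusted p = 0.0488 from edgeR). In that list 3 of 5 had an unadjusted p under 0.05, 4 had a positive value and the median was 0.64. The 7 listed summed to 40.7 to 84.5 CPM in control and 37.9 to 65.3 CPM in cKO pools. With low Xist the sums were 40.7 to 47.8 CPM and 37.9 to 41.8 CPM. The part of all these cells in the higher receptors was not tested.

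**Figure D3:**
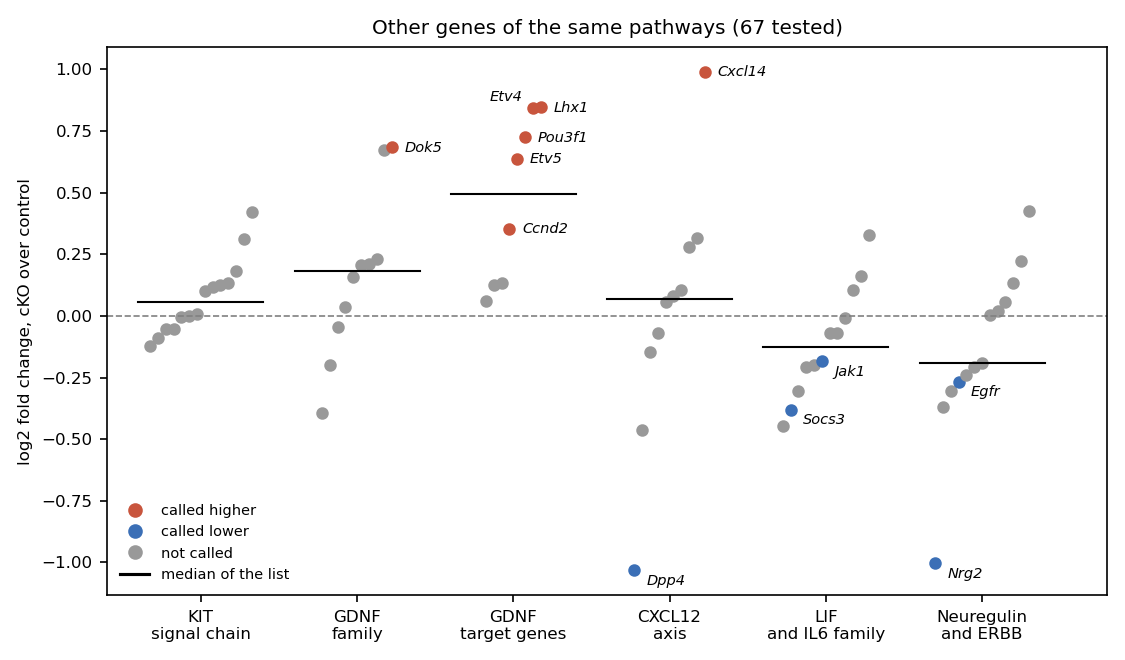
Log2 fold change, cKO over control, of the 67 tested partner genes by list, with red for called higher, blue for called lower, grey for not called and a line at the median of each list. The GDNF target genes hold 5 of the 7 genes called higher, and the KIT signal chain holds no called gene.

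Nrg1 (Entrez Gene 211323, chr8:31818028-31918203, minus strand), a ligand for ERBB3 and ERBB4, was higher in cKO testes by a small margin. It ran from 10.04 through a median of 12.8 to 13.8 CPM in control pools and from 13.4 through 16.8 to 20.5 CPM in cKO pools. Of the cKO pools 5 lay over every control pool, with replicate 5 within the control range. The means were 12.4 ± 1.57 CPM and 16.8 ± 2.67 CPM (SD, n = 6 pools each), which gave a log2 fold change of 0.44 (SE 0.12, adjusted p = 0.0352 from edgeR). The call was kept in 6 of the 12 fits that each left out 1 library and lost without control replicate 5 or 6 or cKO replicate 1, 2, 3 or 4, and the adjusted p from edgeR was at most 0.0862, without cKO replicate 4. Without the 4 libraries with high Xist the groups did not overlap, at 11.4 to 13.8 CPM against 17.9 to 20.5 CPM, with a log2 fold change of 0.55 (adjusted p = 0.0079 from edgeR). The counted interval spans 100.2 kb, while the GENCODE M21 gene spans 1069.5 kb, so that reads of exons outside the counted interval are not in these values.

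Of 13 tested partner genes of NRG1, 2 were lower and none higher, with a list median of -0.19. Nrg2, a related ligand, had 2.11 to 3.90 CPM in control and 0.919 to 1.98 CPM in cKO pools, a log2 fold change of -1.002 (SE 0.21, adjusted p = 0.00925 from edgeR). The receptor Egfr had 41.6 to 55.1 CPM and 38.1 to 43.6 CPM, a log2 fold change of -0.27 (SE 0.074, adjusted p = 0.0384 from edgeR). The receptors Erbb2, Erbb3 and Erbb4 were not called, at log2 fold changes of -0.21, -0.37 and -0.24, and neither were the sheddases Adam17 and Adam19. Without the 4 libraries with high Xist 1 gene of the list was called lower, and without control replicate 1 alone 2 were called lower and 2 higher. The count called lower was 1 or 2 in the other fits that each left out 1 library, and it was 1 without control replicate 2, 4 or 6 or cKO replicate 1, 3, 4, 5 or 6.

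Lif (Entrez Gene 16878, chr11:4257568-4272514, plus strand) was the least expressed of the 10, with 3 to 79 counts in a library. It ran from 0.189 through a median of 0.570 to 0.930 CPM in control pools and from 0.919 through 1.22 to 1.35 CPM in cKO pools. The ranges overlapped only between control replicate 3 and cKO replicate 4. The means were 0.550 ± 0.285 CPM and 1.16 ± 0.187 CPM (SD, n = 6 pools each). The log2 fold change was 1.04 with a 95% interval from 0.37 to 1.70, which did not pass the threshold across all genes (adjusted p = 0.0558 from edgeR). It passed in DESeq2 (adjusted p = 0.0341) and limma-voom (adjusted p = 0.0311) and, in edgeR, without control replicate 1 or 3, and without the 4 libraries with high Xist edgeR gave 0.67 (adjusted p = 0.163).

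Of 12 tested genes of the LIF and interleukin 6 family, 2 were lower and none higher, with a list median of -0.13. Socs3, a feedback inhibitor induced by these cytokines, had 13.1 to 17.2 CPM in control and 10.9 to 12.96 CPM in cKO pools, a log2 fold change of -0.38 (SE 0.087, adjusted p = 0.016 from edgeR), with no overlap between the groups. The kinase Jak1 had a log2 fold change of -0.18 (SE 0.054, adjusted p = 0.0489 from edgeR). The receptor Lifr had 94.2 to 107 CPM and 75.3 to 100.2 CPM, and the shared receptor Il6st 124 to 169 CPM and 124 to 163 CPM, and neither was called. The ligands Osm, Cntf, Il6 and Il11 were too low to be tested. Without control replicate 1 alone 4 genes of the list were called lower and 1 higher. The count called lower was 2 without control replicate 5, without cKO replicate 2 or without the 4 libraries with high Xist, and 1 on leaving out any other single library.

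Kitl (Entrez Gene 17311, chr10:100015824-100100412, plus strand), made by Sertoli and, in the fetal ovary, pregranulosa cells, did not differ by genotype beyond its spread. It ran from 162 through a median of 205 to 382 CPM in control pools and from 196 through 240 to 334 CPM in cKO pools. The 4 libraries with high Xist held the 4 highest values, 263 to 382 CPM, while the other 8 lay at 162 to 235 CPM. The means were 227 ± 82.0 CPM and 256 ± 62.0 CPM (SD, n = 6 pools each), which gave a log2 fold change of 0.17 with a 95% interval from -0.27 to 0.62 (adjusted p = 0.621 from edgeR). With the Xist class as a factor the value was -0.045, with an interval from -0.29 to 0.20, and in the 8 libraries with low Xist it was 0.073, with an interval from -0.21 to 0.35. Of the fits that each left out 1 library, the value was lowest without cKO replicate 6 (0.083) and highest without control replicate 1 (0.39, adjusted p = 0.097 from edgeR).

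Pregranulosa markers also had their 4 highest sums in the libraries with high Xist. Their sum was 315 CPM in control replicate 1 and 141 to 207 CPM in cKO replicates 3, 5 and 6, against 66.7 to 92.8 CPM in the other 8 libraries. Of the 6 markers 1 was called lower, Wnt4, with 51.8 to 110.0 CPM in control and 26.0 to 49.5 CPM in cKO pools. Foxl2 was not called. It ran from 0.230 through a median of 0.420 to 47.2 CPM in control and from 0.859 through 7.92 to 19.3 CPM in cKO pools. Meiosis markers, of which 1 of 11 was called higher, likewise had their 4 highest sums in the libraries with high Xist, at 592 CPM in control replicate 1 and 597 to 1430 CPM in cKO replicates 3, 5 and 6. In the other 8 libraries they summed to 259 to 453 CPM in control and 351 to 380.2 CPM in cKO pools. The part of these cells in the level of Kitl was not tested.

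Kit (Entrez Gene 16590, chr5:75574987-75656722, plus strand), the receptor, ran from 22.6 through a median of 39.9 to 82.6 CPM in control pools and from 36.1 through 46.0 to 77.4 CPM in cKO pools. The groups overlapped over most of their range, and the highest values were those of control replicate 1 (82.6 CPM) and cKO replicate 3 (77.4 CPM). The means were 43.7 ± 20.3 CPM and 50.0 ± 14.9 CPM (SD, n = 6 pools each), which gave a log2 fold change of 0.18 with a 95% interval from -0.37 to 0.73 (adjusted p = 0.682 from edgeR). It was 0.013 without cKO replicate 3 and 0.47 without control replicate 1 (adjusted p = 0.1002 from edgeR), 0.018 with the Xist class as a factor, and 0.27 in the 8 libraries with low Xist (adjusted p = 0.340 from edgeR). Cpa3, a protease of mast cells, was at 10.3 and 19.0 CPM in these same 2 libraries and at 0.505 to 2.31 CPM in the other 10. The sum of 5 mast cell markers, of which 1 could be tested and was not called, was 23.5 and 36.1 CPM there and 0.722 to 2.99 CPM elsewhere. The part of mast cells in the level of Kit was not tested.

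None of 14 genes of the KIT signal chain was called by edgeR, DESeq2 or limma-voom, and 2 of them, Cbl and Stat5a, had an unadjusted p under 0.05 in edgeR. Cbl, the ubiquitin ligase that turns KIT over, had 28.2 to 46.7 CPM in control and 43.5 to 55.1 CPM in cKO pools, a log2 fold change of 0.31 (SE 0.11, adjusted p = 0.101 from edgeR). Stat5a, a transcription factor activated by KIT, had 4.36 to 8.47 CPM and 7.35 to 9.91 CPM, a log2 fold change of 0.42 (SE 0.15, adjusted p = 0.103 from edgeR). The list median was 0.056, and the adaptors Grb2, Gab2, Shc1 and Sos1 and the phosphatase Ptpn11 lay between -0.12 and 0.14. No gene of the list was called in the 8 libraries with low Xist, while without control replicate 1 alone edgeR called 2 higher.

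**Figure D4:**
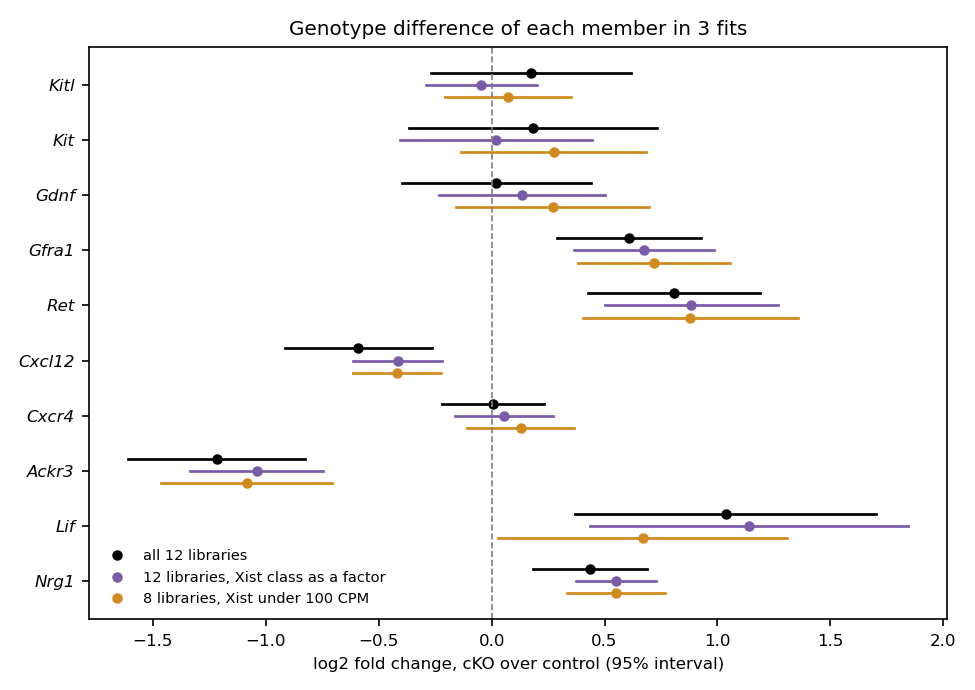
Log2 fold change of each gene, cKO over control, with its 95% interval in 3 edgeR fits: all 12 libraries (black), all 12 with the Xist class as a factor (purple) and the 8 libraries with Xist under 100 CPM (orange). Ackr3 and Cxcl12 lie under 0 and Ret, Gfra1 and Nrg1 over 0 in each fit, while the intervals of Kitl, Kit, Gdnf and Cxcr4 include 0 in each.

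Over all 6 lists 67 of 78 partner genes were tested, 5 were lower and 7 higher, beside 4.85% and 3.28% of all genes, and their median log2 fold change was 0.056. Divided by the length of the longest GENCODE M21 transcript, the levels of the 10 genes in control pools had the order Cxcl12, Kitl, Kit, Gdnf, Cxcr4, Ackr3, Ret, Nrg1, Gfra1 and Lif. Cxcl12 was at 109.5 CPM per kb (77.8 to 124) and Kitl at 40.2 CPM per kb (28.7 to 67.7), so that these 2 ligands stood apart from each other and from the rest. Kit at 8.34, Gdnf at 7.32, Cxcr4 at 6.82 and Ackr3 at 6.26 CPM per kb overlapped over pools, and Ret at 3.96 and Nrg1 at 2.30 CPM per kb each overlapped the gene before it. Gfra1 at 0.653 CPM per kb (0.538 to 0.775) and Lif at 0.137 CPM per kb (0.0470 to 0.231) stood apart from their neighbours. In cKO pools Ret was at 6.97 CPM per kb (5.32 to 8.02) and Ackr3 at 2.67 CPM per kb (1.86 to 4.14), so that Ret lay over Ackr3 and their ranges no longer overlapped. The level of Nrg1 per kb may be understated, since its counted interval holds only part of the gene while the whole transcript was used as its length.

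**Figure D5:**
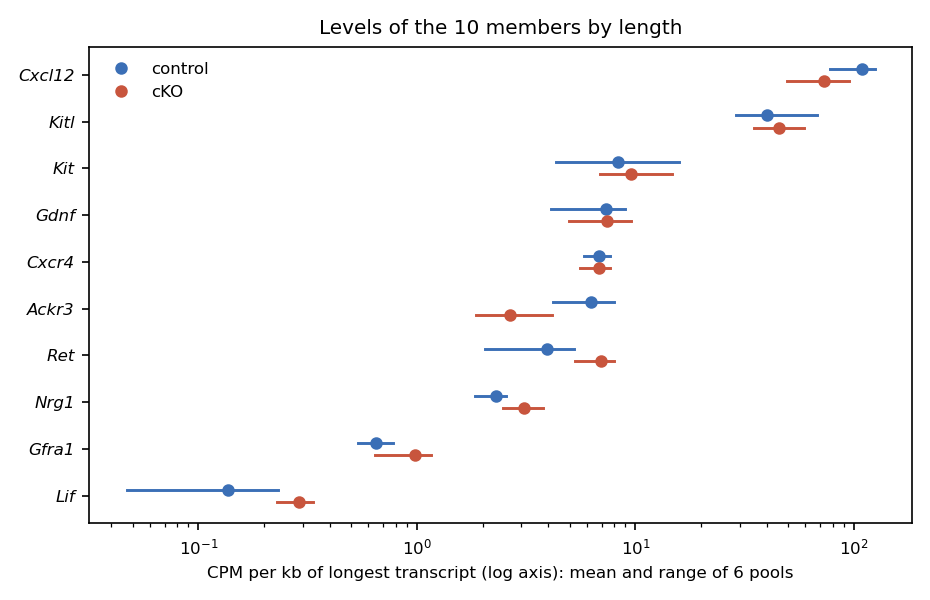
Mean CPM per kb of the longest transcript on a log axis for each gene in control (blue) and cKO (red) pools, with a line from the lowest to the highest of 6 pools. Cxcl12 and Kitl lie highest, Gfra1 and Lif lowest, and Ret lies under Ackr3 in control and over it in cKO pools.

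Genes whose level followed each member most closely across pools were found by Pearson r of log2 CPM over the 12 libraries after the group means were removed, among 14261 genes (14262 for Lif), as a description with no test. All 12 points are the same libraries for each gene, and the part of depth and cell composition in these values was not tested. For Cxcl12 they were Marcks (r = 0.99), Glipr2 (0.98) and Pknox2 (0.98), and for Ackr3 D17H6S56E-5 (0.97), C1qtnf3 (0.96) and Pdlim2 (0.96). For Ret they were Ralgps2 (0.96), Tob2 (0.96) and Mapk8ip1 (0.95), for Gfra1 Kbtbd2 (0.97), Rcsd1 (0.94) and Opcml (0.92), and for Gdnf Pik3cd (0.99) first. For Kitl they were Wnt2b (0.97), Egfl6 (0.97) and Fgf11 (0.97), and for Kit they included Satb1 (0.96) and Zcchc2 (0.95). The closest genes were Iqgap2 (0.96) for Cxcr4, Ube2k (0.96) for Lif and Tdrd5 (0.96) for Nrg1.

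Between the 10 genes the same measure over 12 libraries was highest for Cxcl12 with Ackr3 (r = 0.88) and Gdnf with Ret (r = 0.86). It was lowest for Kitl with Nrg1 (r = -0.91) and Kitl with Cxcl12 (r = -0.85), pairs in which the 4 libraries with high Xist lay at an end of both ranges within their groups. The positive pairs also shared their low pools. For Cxcl12 and Ackr3, control replicate 1 and cKO replicates 5 and 6 were the lowest of their groups. For Gdnf and Ret, control replicate 5 and cKO replicate 6 were the lowest of theirs.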

How the data were processed

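Polyadenylated RNA from pools of 3 testes was sequenced from strand-specific libraries. Per the submitters' processing notes the authors used Trim Galore 0.6.7, STAR 2.5 and featureCounts (Subread 1.5.0-p1) with the mm10 build, and they deposited raw counts of read pairs per RefSeq gene, neither normalized nor filtered. All 12 libraries were used and grouped by the genotype in their labels.

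The test was edgeR's (version 4.0.16 in R 4.3.3) after TMM scaling and filterByExpr (min.count 10, min.total.count 15), with glmQLFit and glmQLFTest, no covariate, and Benjamini-Hochberg adjustment over 15572 genes at 0.05. The SE is the log2 fold change divided by the square root of F. The authors' own tool was DESeq2, and here DESeq2 1.42.0 and limma-voom (limma 3.58.1) were alternatives, with other scalings, filters, a replicate block, Xist class and left-out libraries. The fits were tested on simulated data. Transcript lengths were taken from GENCODE M21. Promoters were taken from a set of RefSeq promoters that held 8 of the 10 genes, without Ret and Nrg1.

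The members, the lists and the Xist threshold of 100 CPM were chosen with earlier results of these data known. Named were the members, Nr2f2, Xist, the called genes of each list or its 2 with the smallest p, and up to 3 genes most like each member, of which a part is not reported here. Other list genes, Sox2 and Cpa3 were named after the values had been looked at. Pools are the replicates, and whether they came from separate litters was not given in the sources used here.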

Additional observations from a re-analysis of the deposited data

Results flagged for a closer look

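Values that stood far from the other 5 pools of their group (Dixon's test at 95%, about 1 in 20 groups by chance) were found in 12 of 74 groups of values tested. Control replicate 1 held 9 of these. It was high for Kit at 82.6 CPM, Kitl at 382 CPM, Xist at 891 CPM and Cpa3 at 10.3 CPM. It was also high for the summed markers of endothelial cells at 550.2 CPM, mast cells at 23.5 CPM, pregranulosa cells at 315 CPM, mesonephric epithelium at 84.5 CPM and neural and Schwann cells at 26.6 CPM. In cKO replicate 3, Cpa3 stood apart at 19.0 CPM and the mast cell sum at 36.1 CPM. In cKO replicate 1, Lhx1 stood apart at 12.4 CPM.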

How the results depend on the processing

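Ackr3 and Ret kept their direction and their call in each alternative run. Over all genes DESeq2 called 873 higher, against 510 in edgeR. Leaving out 1 library gave 497 to 1635 genes lower (without cKO replicate 4 and without control replicate 1, against 756) and 319 to 1471 higher (for the same 2 libraries). In these fits 1 to 2 members were lower and 1 to 4 higher, 3 to 7 partner genes were lower and 4 to 13 higher, and 1 to 2 members on the lower and 1 to 3 on the higher side did not overlap, beside 3.26% to 7.66% and 2.48% to 6.57% of all genes. Without the 4 libraries with high Xist 3 partner genes were lower, and 2 members on the lower and 3 on the higher side did not overlap, beside 14.1% of all genes on each side. Values close to 0 changed sign: Kitl with the Xist class as a factor (-0.045), Gdnf in limma-voom (-0.0047) and from -0.091 to 0.12 on leaving out 1 library, and Cxcr4 with a filter at a mean of 1 CPM (-0.00036) and from -0.030 to 0.057 on leaving out 1 library. Lif passed the threshold without control replicate 1 or 3 and with the Xist class as a factor (adjusted p = 0.0499 from edgeR). The causes were not tested. Lif had 3 to 79 and Gfra1 22 to 259 counts in a library, which limits the precision of both.

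With the replicate number as a block, 1 member was lower, and Cxcl12 (-0.61, adjusted p = 0.0565 from edgeR) and Gfra1 (0.61, adjusted p = 0.0846 from edgeR) lost their call. Of the partner genes 2 were lower and 4 higher, the latter all GDNF target genes. Over all genes 539 were lower and 392 higher. Same-numbered pools did not deviate together, with correlations from -0.35 to 0.29 and 2 of 6 over 0.1, so that they share only a number.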
